A study of Lactuca sativa with 32 samples.

Results

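The genes described here are 150 whose leaf mRNA stood lowest under the FTAZ:PCBM filter in the PAR controlled (PC) experiment on red oak leaf lettuce (Lactuca sativa). They were chosen from 20306 genes that averaged at least 1 CPM (reads per 1e+06 counted reads) over the 16 PC plants, out of 43717 genes in the count files. For each gene and plant, log2(CPM + 0.1) was taken, and d is the mean of this value in 1 group minus the mean of the other 3 group means of the same experiment. A gene qualified when its largest absolute d among the 4 PC groups was that of FTAZ:PCBM and all 4 FTAZ:PCBM plants lay below the other 12 PC plants, which by itself held for 444 genes (2.19%). It was dropped when all 16 plants of the height controlled (HC) experiment lay on 1 side of all 16 PC plants, which removed 4 genes. In all, 394 genes qualified (1.94% of those eligible), the 150 with the largest d in size were kept, and 244 were not. Their PC values are therefore a description with no test, and the tests below use the HC plants.

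Messenger RNA was sequenced from leaves of 32 plants, 4 in each of 8 groups. Lamps of the ceramic metal halide and incandescent types shone through clear glass (Control) or through a filter with the blend FTAZ:IT-M, FTAZ:PCBM or PTB7-Th:IEICO-4F, and light intensity was adjusted in PC and left unadjusted in HC. All 8 groups shared the lettuce type, the lamps, automated irrigation with fertilizer and rotation of the pots, and nothing but the cover and the intensity adjustment is labelled as different. Each box held 16 plants, with a harvest at 3 weeks and 8 plants kept to a final harvest at 5 weeks; the harvest that gave the leaves and the number of boxes per group are not given in the sources used here, so box and cover cannot be told apart.

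An organic photovoltaic filter is a semi-transparent film of a light-absorbing polymer, the donor, mixed with an acceptor. FTAZ and PTB7-Th are donor polymers, PCBM is a fullerene derivative, and IT-M and IEICO-4F are acceptors without a fullerene, so FTAZ:PCBM and FTAZ:IT-M share the donor and differ in the acceptor. Leaves read such changes of spectrum and intensity through phytochromes, which sense red and far-red light, and through cryptochromes and phototropins, which sense blue light. Phytochromes and cryptochromes act largely by changing which genes are transcribed. The 150 genes carry locus identifiers only, with no gene product named in the sources used here, so no role is given to any of them and the leaf label was not checked against marker genes. In whole leaves, fewer cells of a type and less RNA per cell cannot be told apart.

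Depth was even: total counts per plant ranged from 47289413 to 48764530, and 26117 to 26633 genes had a read. A level of 3 counts, taken as the smallest that this depth can show, was 0.0615 to 0.0634 CPM, a floor that covers counting error only. The library numbers in the file headers run in blocks of 4 by group, so that library number and group cannot be told apart, and the numbers of PC FTAZ:PCBM plants 2 and 3 carry an added b. Without both of those libraries 664 genes qualified in place of 394, and 139 of the 150 were among them. With fewer PC FTAZ:PCBM plants the rule asks less of each gene, so a rise in this count does not single out those libraries. Without plant 1, 2, 3 or 4 of PC FTAZ:PCBM alone, 509, 518, 460 and 784 genes qualified.

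As a share of all reads, the 150 genes stood lower in every PC FTAZ:PCBM plant than in any other PC plant, as their choice required gene by gene. They held 0.568%, 0.555%, 0.579% and 0.630% of the reads of the 4 PC FTAZ:PCBM plants, with a mean of 0.583% ± 0.0330 (SD, n = 4). The mean was 0.839% ± 0.0253 in PC Control, 0.935% ± 0.0259 in PC FTAZ:IT-M and 0.835% ± 0.0297 in PC PTB7-Th:IEICO-4F (SD, n = 4 each). FTAZ:IT-M, the filter that shares the FTAZ donor, had the largest of these shares. Its group mean was the highest of the 4 PC groups for 83 of the 150 genes (55.3%), against 21.4% of the eligible genes. PTB7-Th:IEICO-4F was highest for 55 (36.7%, against 42.4%) and Control for 12 (8%, against 11.1%). The rule keeps FTAZ:PCBM from being highest in any of the 150, but not in the eligible genes. The percentages of the 150 and of the eligible genes are therefore not on the same footing. They also rest on the PC values that chose the genes.

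The size of d ran from −1.42 to −0.43 with a median of −0.56, while the median over the eligible genes was −0.021. Only 6 of the 150 reached a d of −1, and 100 reached −0.5. Most of the differences were thus modest, and so was the distance to the nearest plant. The gap on the log2 scale between the highest PC FTAZ:PCBM plant and the lowest of the other 12 had a median of 0.11 and a range from 0.0023 to 0.48. The lowest of the other 12 plants was a PTB7-Th:IEICO-4F plant for 63 genes, a Control plant for 45 and an FTAZ:IT-M plant for 42.

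The 4 PC FTAZ:PCBM plants were not equally low. As deviations from the mean of all 32 plants, the median over the 150 genes was −0.31, −0.25, −0.22 and −0.12 on the log2 scale in plants 1 to 4. Plant 1 was the lowest of the 4 for 65 genes, while plant 4 was the highest for 86 and the lowest for 7. The same median was between 0.25 and 0.46 in every one of the other 12 PC plants. The choice of the genes required that these medians not overlap those of PC FTAZ:PCBM. With the trend on exonic length described below removed from each plant, PC FTAZ:PCBM plants 1 to 4 had medians of −0.16, −0.20, −0.12 and −0.10. Plant 2 was then the lowest, and the part of the length trend in the differences between these plants was not tested.

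**Figure D1:**
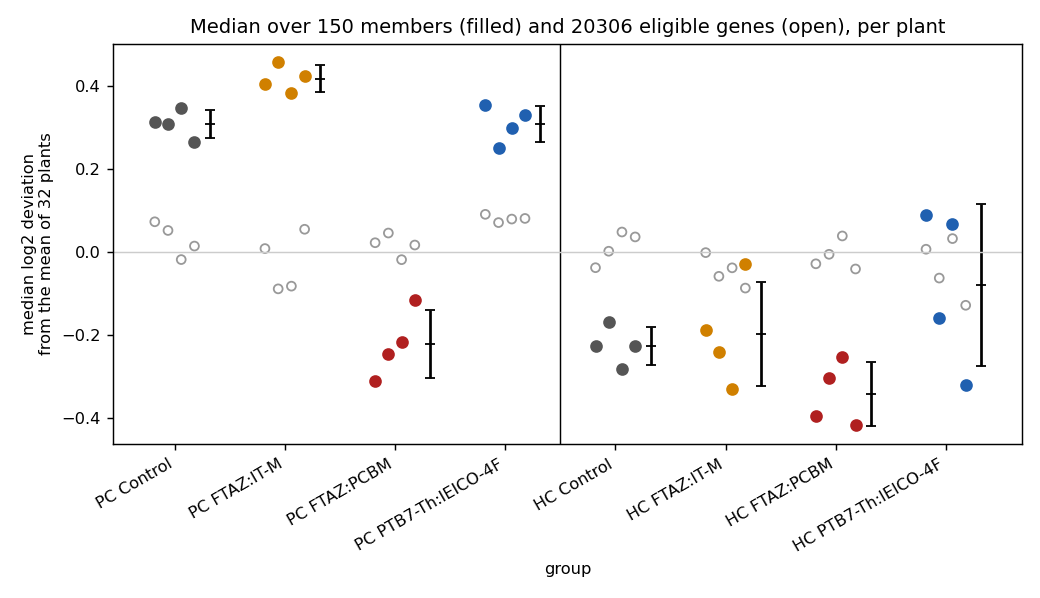
Median over the 150 genes (filled points) and over all 20306 eligible genes (open points) of the log2 deviation from the mean of 32 plants, for each plant, with the group mean and SD of the filled points as bars. The 4 PC FTAZ:PCBM plants lie between −0.31 and −0.12, below every other PC plant, as the choice of the genes required. The HC FTAZ:PCBM plants lie between −0.42 and −0.25.

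The largest d belonged to LOC111881586 (scaffold NW_019679593.1, 1892863 to 1898655, plus strand), which with an exonic length of 3518 bp was also the longest of the 150. It was a rare transcript, at 0.783, 0.372, 0.330 and 0.621 CPM in the PC FTAZ:PCBM plants, 1.07, 0.984, 2.10 and 1.14 CPM in PC Control and 2.75, 1.46, 2.51 and 0.792 CPM in PC FTAZ:IT-M. Its highest FTAZ:PCBM plant and lowest FTAZ:IT-M plant all but touched, and in HC its d was 0.0057, with FTAZ:PCBM at 0.721 ± 0.180 CPM and Control at 0.538 ± 0.144 CPM (SD, n = 4 each). Its counts in the PC FTAZ:PCBM plants were 38, 18, 16 and 30. Over 22 alternative settings its d in PC ran from −1.64 to −0.75, while that of LOC111877141, described below, stayed between −1.24 and −0.90. Its first place therefore depends on the setting. The next in size, LOC111876599, had a d of −1.15 in PC and the lowest HC value of the 150, −1.09. Its HC FTAZ:PCBM plants ranged widely, at 0.0837, 0.254, 0.373 and 0.939 CPM, and overlapped the HC Control plants at 0.918, 0.899, 0.651 and 1.41 CPM.

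LOC111877141 (scaffold NW_019678530.1, 1945798 to 1948709, plus strand, 12 exons) had the largest d of the genes that averaged above 10 CPM, −1.13. It stood at 25.1, 15.4, 18.7 and 21.7 CPM in the PC FTAZ:PCBM plants, against 51.9, 42.6, 53.2 and 32.5 CPM in PC Control, 56.7, 59.2, 57.5 and 70.3 CPM in PC FTAZ:IT-M and 30.02, 32.4, 27.5 and 35.2 CPM in PC PTB7-Th:IEICO-4F. The FTAZ:IT-M plants were thus the highest. The PTB7-Th:IEICO-4F mean lay between those of FTAZ:PCBM and Control, but its plants overlapped Control, with plant 4 at 35.2 CPM above Control plant 4 at 32.5 CPM. All 16 HC plants, at 7.22 to 26.03 CPM, lay below all 12 PC plants of the other 3 groups.

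LOC111889881 (scaffold NW_019681561.1, 1808956 to 1809571, plus strand), a gene of 1 exon and 616 bp, had a d of −1.09. It stood at 1.26, 1.49, 1.65 and 2.15 CPM under PC FTAZ:PCBM and at 2.59 to 4.46 CPM in the other 12 PC plants. LOC111921719, of 1457 bp, stood at 18.3, 13.3, 12.5 and 15.2 CPM under PC FTAZ:PCBM and at 21.3 to 33.03 CPM in the others, a d of −0.88. In HC both genes had their lowest group mean under FTAZ:PCBM as well: LOC111889881 was at 1.03 ± 0.276 CPM against 1.56 ± 0.270 CPM in HC Control, and LOC111921719 at 6.53 ± 0.976 against 9.28 ± 2.08 CPM (SD, n = 4 each). Neither passed the HC test described below, in which FTAZ:PCBM was set against the other 3 groups, with edgeR adjusted p of 0.0769 and 0.123.

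The remaining 5 of the 10 largest were LOC111891684, LOC111908644, LOC111877655, LOC111919099 and LOC111886218, with d from −1.06 to −0.87. LOC111877655, a long noncoding RNA of 1070 bp, was the most abundant of the 10, at 39.01, 25.6, 29.02 and 41.9 CPM under PC FTAZ:PCBM and 46.3, 60.2, 71.7 and 50.97 CPM in PC Control. Its highest level was under PTB7-Th:IEICO-4F, in PC (80.7 ± 11.9 CPM) and in HC (46.6 ± 15.4 CPM; SD, n = 4 each). LOC111886218 had a d above 0 in HC, 0.10.

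The 150 genes covered a wide range of abundance. Their median level over the PC plants was 20.7 CPM, against 17.9 CPM for the eligible genes, and per kilobase of exon the medians were 22.3 and 10.9 CPM. The most abundant was LOC111904451 (scaffold NW_019674204.1, 698690 to 701805, plus strand, 1457 bp), at 466, 448, 411 and 447 CPM under PC FTAZ:PCBM and 682, 565, 546 and 538 CPM in PC Control, a d of −0.48. In HC all its group means were lower, and the plants stood at 229 to 311 CPM under clear glass and the FTAZ filters and 270.2 to 422 CPM under PTB7-Th:IEICO-4F. LOC111918909, LOC111901140, LOC111906190 and LOC111881290 followed, with PC Control means of 427 ± 21.5, 309.7 ± 24.3, 293 ± 11.7 and 255 ± 11.5 CPM (SD, n = 4 each) and d of −0.63, −0.64, −0.51 and −0.53.

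The genes that separated FTAZ:PCBM most evenly, measured as the gap to the nearest other plant relative to d, were LOC111894625, LOC111920706 and LOC111893458. LOC111894625 stood at 15.3, 16.8, 15.3 and 16.9 CPM under PC FTAZ:PCBM, and the other 12 PC plants were at 23.6 to 32.4 CPM. LOC111893458 stood at 7.99, 7.24, 8.19 and 7.91 CPM under PC FTAZ:PCBM and at 10.7 to 13.2 CPM in the others. LOC111920706 stood at 5.42, 5.03, 5.36 and 5.98 CPM under PC FTAZ:PCBM and at 8.01 to 12.3 CPM in the others. These 3 genes were picked on the PC values for the size of this gap. That FTAZ:PCBM stood off from the other PC groups in them therefore follows from the choice. At the limit of 150, the last genes inside were LOC111890690, LOC111918669 and LOC111914649 with d of −0.4327, −0.4316 and −0.4301, and the next outside were LOC111890053, LOC111916412 and LOC111903220 with −0.4296, −0.4282 and −0.4277, so the limit marks no break in the values.

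**Figure D2:**
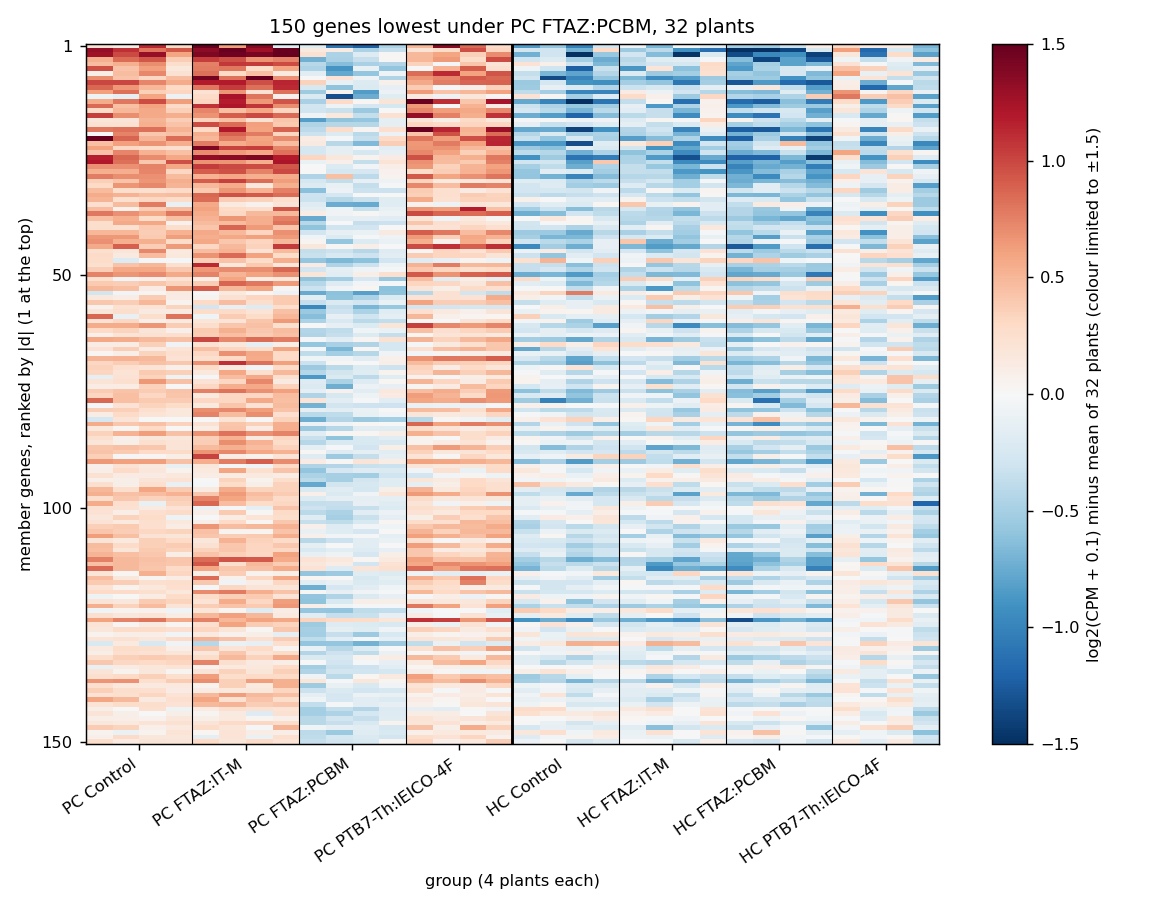
Each row is 1 of the 150 genes, ordered by d in PC with the largest at the top, and each column is 1 plant; colour gives log2(CPM + 0.1) minus the gene's mean over 32 plants, limited to ±1.5. PC FTAZ:PCBM is pale to blue between 3 red PC groups, and the HC plants are mostly blue, except plants 1 and 3 of HC PTB7-Th:IEICO-4F.

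The 150 genes were short. Their exonic length had a median of 1031 bp (range 213 to 3518), against 1643 bp for the eligible genes. Genes below 1000 bp made up 68 of the 150 (45.3%) and 18.2% of the eligible genes, while genes of 2000 bp or more made up 6 (4%) and 33.8%. The median number of exons was 3 against 5 and the median span on the genome 1722 against 2698 bp, and genes of a single exon were about as frequent in both, at 12.7% and 11.4%. The 5 longest were LOC111881586, LOC111916056, LOC111876934, LOC111920706 and LOC111882123, and after LOC111881586 these were 2124 to 2333 bp long. When the same rule was applied in the other direction, the 581 genes highest under PC FTAZ:PCBM had a median length of 3005 bp.

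In PC FTAZ:PCBM the level followed length across all eligible genes. In plants 1 to 4 of that group, log2 CPM relative to the gene mean changed by 0.20, 0.17, 0.12 and 0.035 for each doubling of exonic length, with a mean of 0.13 ± 0.072 (SD, n = 4). The means of the other 7 groups ran from −0.041 to 0.020, HC FTAZ:PCBM being at −0.022 ± 0.035. The single plants of those groups ran from −0.117 in PC Control 3 to 0.061 in HC Control 2, so plants 1 to 3 of PC FTAZ:PCBM lay above them and plant 4 among them. The median d in PC over the eligible genes went from −0.21 at 500 to 749 bp to 0.25 at 3000 bp and more.

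With a smooth trend on length removed from each plant, 206 genes qualified and 63 of the 150 were among them, including 6 of the 10 with the largest d. The 63 had a median length of 1261 bp and the other 87 of 944 bp. The median d of the 150 in PC became −0.45 after this step, with the largest, LOC111881586, at −1.64, and the 150 genes taken by the rule on those values had a median length of 1833.5 bp. The part of the length trend in the choice of each gene was not tested.

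**Figure D3:**
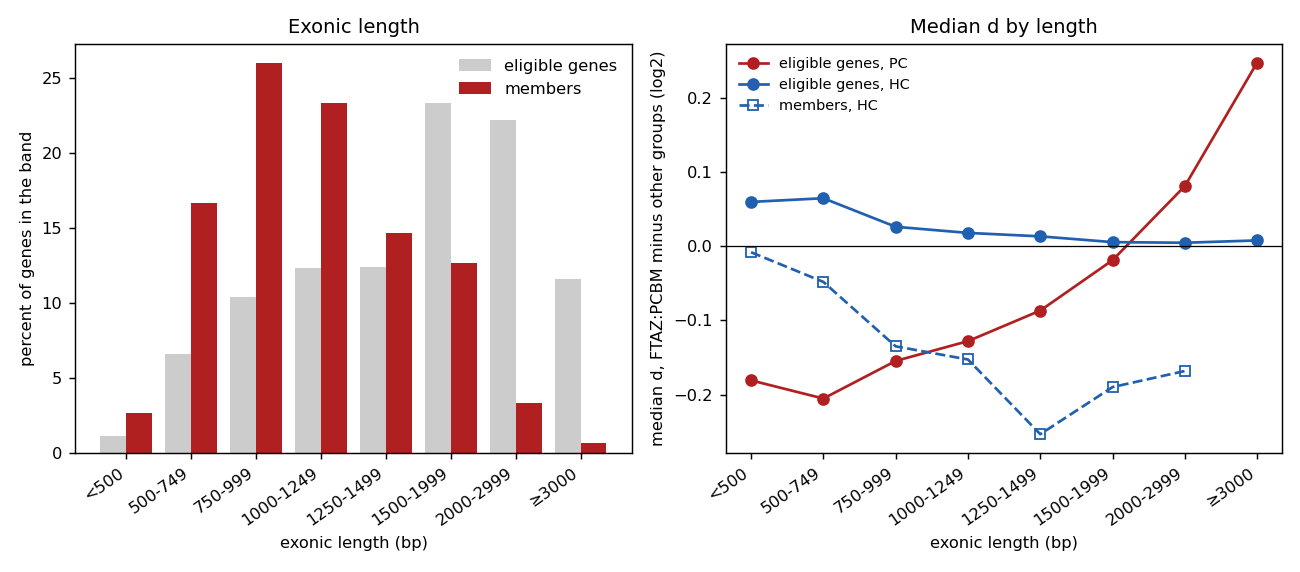
Left, percent of the 150 genes (red) and of the eligible genes (grey) in bands of exonic length in bp. Right, median d on the log2 scale per band: eligible genes in PC go from −0.18 below 500 bp to 0.25 at 3000 bp and more, eligible genes in HC stay between 0.0049 and 0.065, and the 150 genes in HC lie below 0 in every band drawn.

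In the HC experiment, whose plants served only to drop 4 genes, the 150 genes were low in all groups. The HC Control plants lay below all PC Control plants for 110 genes (73.3%), against 18.2% of the eligible genes, and above them for 2, against 16.4%. HC Control minus PC Control had a median of −0.55 on the log2 scale over the 150 and −0.013 over the eligible genes. For 114 genes (76%, against 51.2%) the HC Control mean was nearer to PC FTAZ:PCBM than to PC Control, and for 44 genes all 16 HC plants lay below the 12 PC plants of the other covers, against 1.25% of the eligible genes. These counts use the PC plants that chose the genes and so are given with no test, and the experiment and its light intensity cannot be told apart. The reads of the 150 genes made up 0.525% ± 0.0269 in HC Control, 0.549% ± 0.0489 in HC FTAZ:IT-M, 0.488% ± 0.0273 in HC FTAZ:PCBM and 0.600% ± 0.0822 in HC PTB7-Th:IEICO-4F (SD, n = 4 each).

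Within HC, FTAZ:PCBM was also the cover under which most of the 150 genes stood lowest. The differences were smaller than in PC, but the genes were chosen for large differences there, so the sizes cannot be compared. The d of HC FTAZ:PCBM was below 0 for 126 of the 150 (84%), against 45.0% of the eligible genes, with a median of −0.15 against 0.014. It reached −0.25 or lower for 45 of the 150 (30%), against 4.30%. HC FTAZ:PCBM had the lowest of the 4 HC group means for 89 genes (59.3%), against 17.96%, and its 4 plants lay below the other 12 HC plants for 7 of the 150, against 0.197%.

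The difference in HC was larger for the genes with the larger difference in PC. The 50 with the largest d in PC had a median HC d of −0.28, with 44 below 0. The next 50 had −0.13 and the last 50 had −0.11, with 41 below 0 in each. The 3 sets also differed in abundance, with median levels of 14.1, 19.8 and 30.9 CPM over the PC plants, and the part of abundance was not tested. With the trend on length removed from each plant, the HC d of the 150 was below 0 for 133 genes (88.7%, against 50.4%) with a median of −0.18. Short eligible genes of 500 to 749 bp had a median HC d of 0.065 where those among the 150 had −0.048. Among the 63 genes that qualified in PC without the length trend, 54 had an HC d below 0, with a median of −0.17. The other 87 had a similar median HC d, −0.15.

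**Figure D4:**
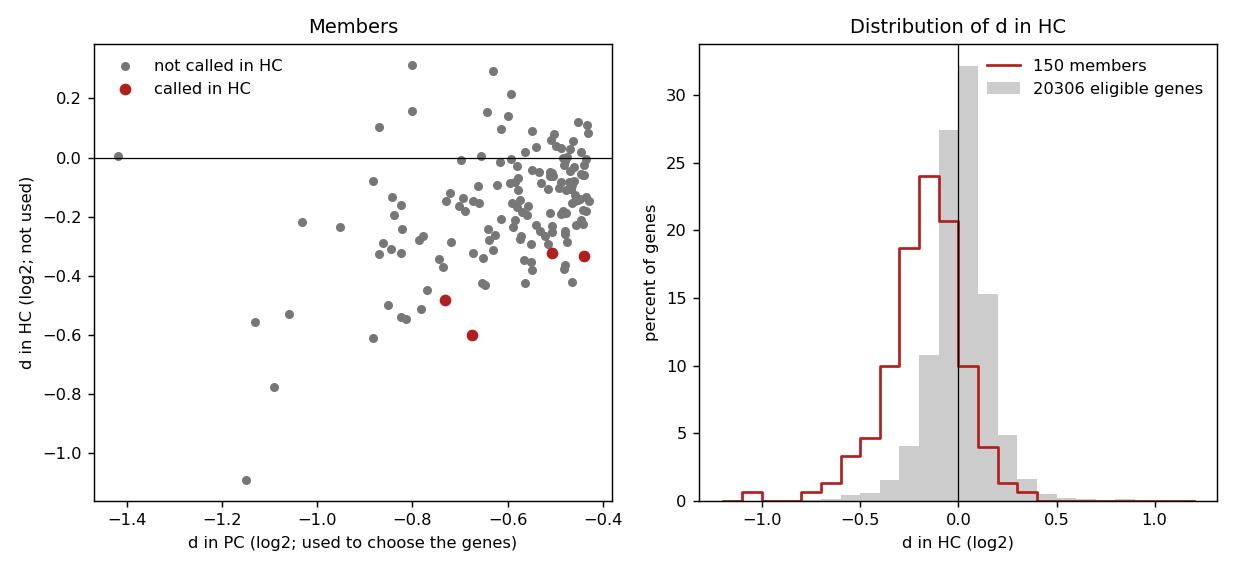
Left, d in PC (log2, used to choose the genes) against d in HC (log2, not used) for the 150 genes, with the 4 genes called for HC FTAZ:PCBM against the other HC groups in red. Right, distribution of d in HC for the 150 genes (line) and the 20306 eligible genes (grey bars), as percent of genes: 84% of the 150 and 45.0% of the eligible genes lie below 0.

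The HC difference was tested gene by gene with edgeR's quasi-likelihood F-test on the 16 HC plants over 23882 genes, all 150 included, and a gene was called at a Benjamini-Hochberg adjusted p under 0.05. The p-values measure the spread between the plants sampled. HC FTAZ:PCBM against the mean of the other 3 HC groups gave 46 called genes in all (0.193%), 22 higher and 24 lower. Of the 150, 4 fell and 0 rose: LOC111916659, LOC111906190, LOC111907966 and LOC111894783. At an unadjusted p under 0.05, 57 of the 150 (38%) were lower, against 4.94% of all genes tested, and 0 were higher, against 5%. The median log2 fold change of the 150 was −0.17. The count of 4 became 1 or 2 when any 1 of 11 plants was left out, namely HC Control 1, 2 or 3, HC FTAZ:IT-M 1, 3 or 4, any HC FTAZ:PCBM plant, or HC PTB7-Th:IEICO-4F 1.

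LOC111916659 (scaffold NW_019677158.1, 2061458 to 2062549, minus strand, 998 bp, 2 exons) was the clearest of these. In HC it stood at 9.997, 9.09, 8.50 and 9.51 CPM under FTAZ:PCBM, 10.9 to 11.4 CPM under FTAZ:IT-M, 14.8, 16.4, 14.96 and 12.5 CPM in Control and 17.5, 16.9, 18.95 and 15.8 CPM under PTB7-Th:IEICO-4F. The FTAZ:PCBM plants were the lowest, the FTAZ:IT-M plants came next with no overlap, and both lay below all Control plants. In PC it stood at 8.65, 13.2, 13.3 and 13.1 CPM under FTAZ:PCBM and 20.02, 21.3, 17.8 and 20.1 CPM in Control. Against the other 3 HC groups it had a log2 fold change of −0.62 (SE 0.073, adjusted p = 0.00380) by edgeR with Benjamini-Hochberg adjustment, and it was called under all 23 alternative settings, with an adjusted p of at most 0.0483.

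LOC111907966 (scaffold NW_019675027.1, 493618 to 495496, minus strand, 1406 bp) stood at 30.97, 32.3, 33.1 and 31.6 CPM under HC FTAZ:PCBM and at 36.6 to 54.97 CPM in the other 12 HC plants. It had a log2 fold change of −0.50 (SE 0.085, adjusted p = 0.0339), and in PC the FTAZ:PCBM plants were at 43.2, 40.1, 47.8 and 49.1 CPM and the others at 56.97 to 106 CPM. The HC FTAZ:PCBM plants therefore stood apart from the other 12 HC plants, while in PC the rule required this of every gene. LOC111906190 (scaffold NW_019674536.1, 503684 to 506973, minus strand, 1826 bp, 14 exons) stood at 172, 159, 168 and 167 CPM under HC FTAZ:PCBM and at 174 to 267 CPM in the other HC plants, with a log2 fold change of −0.33 (SE 0.058, adjusted p = 0.0339). Its PC FTAZ:PCBM plants were close to each other, at 201, 209, 209 and 211 CPM, and the other PC plants were at 257 to 387 CPM.

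LOC111894783 (scaffold NW_019682785.1, 1476637 to 1478297, minus strand, 1572 bp) stood at 64.4, 66.2, 60.5 and 64.6 CPM under HC FTAZ:PCBM and at 69.4 to 93.8 CPM in the other HC plants, with a log2 fold change of −0.35 (SE 0.064, adjusted p = 0.0432). The adjusted p-values here are from edgeR with Benjamini-Hochberg adjustment. Of 23 alternative settings, LOC111906190 lost its call under 12, LOC111907966 under 10 and LOC111894783 under 14, with adjusted p up to 0.168, 0.161 and 0.185, and none changed direction. The other 3 genes whose HC FTAZ:PCBM plants lay below the other 12 HC plants were LOC111901140, LOC111908115 and LOC111896712, with adjusted p of 0.123, 0.105 and 0.0997. Of these, LOC111908115, a gene of 568 bp, stood at 34.1, 37.03, 33.8 and 31.7 CPM under HC FTAZ:PCBM and 44.2, 38.1, 39.3 and 42.3 CPM in HC Control, and at 35.1, 35.7, 35.7 and 43.4 against 56.5, 56.5, 69.8 and 64.9 CPM in PC.

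**Figure D5:**
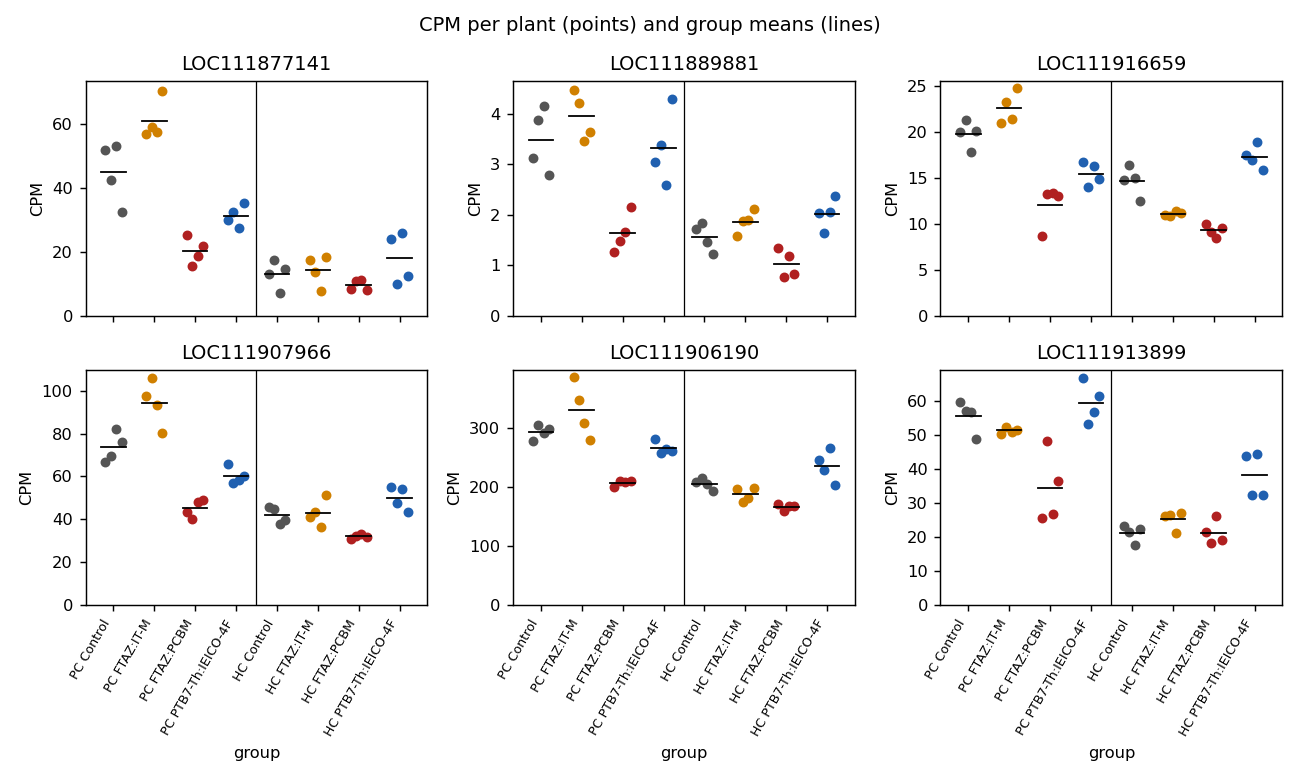
CPM of 6 of the 150 genes in each plant (points) with group means (lines), PC groups left and HC groups right of the vertical line, each panel starting at 0. All 6 are lowest under FTAZ:PCBM in PC by the rule. All 6 also have their lowest HC mean under FTAZ:PCBM, level with Control for LOC111913899 at 21.1 CPM in each. For LOC111916659, LOC111907966 and LOC111906190 all 4 HC FTAZ:PCBM plants lie below the other 12 HC plants. LOC111913899 is high in HC under PTB7-Th:IEICO-4F, at 32.1 to 44.2 CPM.

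Against HC Control alone, the difference was smaller. HC FTAZ:PCBM against HC Control gave 4 called genes in all (0.0167%), and 1 of the 150, LOC111916659, fell, with a log2 fold change of −0.64 (SE 0.087, adjusted p = 0.0347) by edgeR with Benjamini-Hochberg adjustment. That call was lost under 7 of 15 alternative settings, with adjusted p up to 0.224; without HC Control 1, 2 or 3, or without HC FTAZ:PCBM 2, 3 or 4, 0 of the 150 were called. At an unadjusted p under 0.05, 18 of the 150 were lower (12%, against 3.42% of all genes tested) and 1 was higher (against 3.48%), and the median log2 fold change was −0.071. The 4 HC FTAZ:PCBM plants lay below the 4 HC Control plants for 14 of the 150, against 4.36% of the eligible genes.

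FTAZ:IT-M, the other filter with the FTAZ donor, gave 0 called genes against HC Control by edgeR (0%), while 1615 genes had an unadjusted p under 0.05. DESeq2 called 14, and 0 of them were among the 150. At an unadjusted p under 0.05, 13 of the 150 were higher, against 3.72% of all genes tested, and 1 was lower, against 3.04%. The median log2 fold change of the 150 was 0.086. In PC, where the genes were chosen, FTAZ:IT-M minus Control had a median of 0.086 over the 150, against −0.054 over the eligible genes. FTAZ:PCBM minus Control had a median of −0.51 there, against −0.026.

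The HC filter with called differences in the 150 on the higher side was PTB7-Th:IEICO-4F. Against HC Control it gave 506 called genes in all (2.12%), 243 higher and 263 lower, and 12 of the 150 rose while 0 fell. At an unadjusted p under 0.05, 54 of the 150 (36%) were higher, against 9.14% of all genes tested, and 5 were lower, against 9.04%, with a median log2 fold change of 0.19. PTB7-Th:IEICO-4F had the highest HC group mean for 89 of the 150, against 29.4% of the eligible genes, and its 4 plants lay above the 4 HC Control plants for 10 of the 150, against 2.41%. Its plants are also part of the mean with which HC FTAZ:PCBM was compared above, so the comparisons share samples. In PC, whose values chose the genes, the median of PTB7-Th:IEICO-4F minus Control over the 150 was 0.0085, against 0.054 over the eligible genes.

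LOC111913899 (scaffold NW_019676667.1, 149674 to 150687, minus strand, 968 bp) had the lowest adjusted p of the 12. In HC it stood at 43.7, 32.2, 44.2 and 32.1 CPM under PTB7-Th:IEICO-4F and 23.2, 21.4, 17.5 and 22.4 CPM in Control, with no overlap, and at 21.3, 18.1, 26.1 and 18.9 CPM under FTAZ:PCBM, which overlapped Control. Its PC values were 25.6, 48.003, 26.8 and 36.4 CPM under FTAZ:PCBM and 59.7, 57.1, 56.7 and 48.7 CPM in Control. The HC difference from Control was a log2 fold change of 0.89 (SE 0.13, adjusted p = 0.00785) by edgeR with Benjamini-Hochberg adjustment. LOC111897682, of 1826 bp, stood at 10.2, 10.02, 12.8 and 9.68 CPM under HC PTB7-Th:IEICO-4F and 5.61, 6.25, 5.42 and 7.12 CPM in HC Control, again with no overlap, and had a log2 fold change of 0.85 (SE 0.13, adjusted p = 0.00996). Both genes were called under all 15 alternative settings, with adjusted p of at most 0.0322 and 0.0431.

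The other 10 that rose were LOC111884885, LOC111896712, LOC111881684, LOC111882123, LOC111905401, LOC111901858, LOC111894625, LOC111895380, LOC111891268 and LOC111881939, with log2 fold changes from 0.37 to 1.07 and edgeR adjusted p-values from 0.0130 to 0.0465. LOC111884885 stood at 71.998, 54.3, 71.6 and 50.5 CPM under HC PTB7-Th:IEICO-4F and 37.99, 44.8, 36.8 and 40.2 CPM in HC Control. LOC111894625, among the most even genes in PC, stood at 27.7, 14.1, 21.7 and 18.9 and 14.1, 13.6, 11.1 and 13.4 CPM in those groups, where plant 2 of PTB7-Th:IEICO-4F was level with the highest Control plant. The count of 12 became 2 without HC Control 3, 4 without HC PTB7-Th:IEICO-4F 3, 5 without HC Control 1 or 4, 7 without HC Control 2, and 18 without HC PTB7-Th:IEICO-4F 2. Without HC PTB7-Th:IEICO-4F 1, 6 of the 150 were higher and 1 was lower, and 1 was also lower with all 32 plants in the model, with DESeq2 and at a mean CPM of at least 5.

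The HC PTB7-Th:IEICO-4F plants were far from uniform in these genes. The median deviation of the 150 from the mean of 32 plants was 0.090, −0.16, 0.067 and −0.32 on the log2 scale in plants 1 to 4. On these values plants 1 and 3 stood above every other HC plant and plant 4 among the HC FTAZ:PCBM plants. Over all eligible genes, however, the median of plant 4 was −0.13. With the trend on length removed from each plant, the medians over the 150 were 0.077, −0.14, 0.011 and −0.14. Plant 4 then lay above the HC FTAZ:PCBM plants, which ran from −0.39 to −0.28. Plant 3 then lay below HC FTAZ:IT-M plant 4, at 0.042. Plant 4 was the lowest of its group for 102 of the 150 genes and the highest for 3. The HC FTAZ:IT-M plants ranged from −0.33 to −0.030 and the HC FTAZ:PCBM plants from −0.42 to −0.25. The first principal component of the 150 genes over the HC plants held 39.9% of their variance, and 136 of the 150 genes had a loading of the same sign, with plants 1 and 3 of PTB7-Th:IEICO-4F at its high end and plants 1 and 4 of FTAZ:PCBM at its low end.

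By RefSeq's table for assembly Lsat_Salinas_v11, which matched 148 of the 150 identifiers, 136 were protein-coding and 12 were long noncoding RNAs (8%, against 5.87% of the eligible genes). The 12 noncoding RNAs had a median length of 1002.5 bp, levels from 1.73 to 57.9 CPM and d from −0.95 to −0.46, and all 12 had an HC d below 0, with a median of −0.17. The 150 genes lay on 132 scaffolds of the Lsat_Salinas_v7 assembly, and 14 scaffolds held 2 or more. Positions in this report are on that assembly, which is in scaffolds and not in chromosomes.

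A few of the 150 were neighbours. LOC111916659 and LOC111916662 lay 11860 bp apart on the same strand with 1 gene between them, and had d of −0.67 and −0.55 in PC and −0.60 and −0.35 in HC. LOC111881939 and LOC111881935 lay 92161 bp apart with 4 genes between, with d of −0.85 and −0.82 in PC and −0.50 and −0.54 in HC. LOC111920708 and LOC111920709 had no gene between them and lay on opposite strands, with d of −0.46 and −0.55 in PC and −0.15 and −0.38 in HC. Other close pairs did not share a low HC d. LOC111890690 and LOC111890700, 18237 bp apart on the same strand with 1 gene between, had HC d of 0.11 and 0.018. LOC111894807 and LOC111894783, 103263 bp apart with 4 genes between, had 0.29 and −0.33. These pairs were picked after their values were seen, and how often eligible genes lie this close was not counted. Their sequences were not compared here, and reads of near-identical copies can go uncounted.

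For 9 of the 150 (6%, against 5.10% of the eligible genes) the annotated span overlapped another gene, in 7 cases on the opposite strand, and no strand option appears in the file headers, so reads of such pairs cannot be told apart. LOC111895380 overlapped LOC111895379, which stood at 548 CPM in PC, and LOC111884005 overlapped LOC111884006 at 90.3 CPM. The partners of LOC111907966 and LOC111908115, named above, were at 0.115 and 3.48 CPM.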

How the data were processed

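Leaf mRNA of 32 plants was measured by RNA sequencing after poly-A selection, and per the labels' protocols all libraries ran pooled on 3 lanes. The authors deposited 1 table of raw read counts per plant; per the file headers, featureCounts 2.0.1 summed exons by gene on Lsat_Salinas_v7 (RefSeq). FastQC, HISAT2 and DESeq2 are named in the submitters' processing notes. No strand, multi-mapping or read-pair option appears in the headers, so reads of overlapping genes on opposite strands are not separated and reads of near-identical copies can go uncounted. Groups came from the sample titles, in which PTB7-Th:IEICO-4F is spelled in more than 1 way.

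CPM was each count divided by its column total times 1e+06. The members and gene lists were chosen with earlier results of these data known. Tests used edgeR 4.0.16 in R 4.3.3 (quasi-likelihood F-test, TMM scaling, filterByExpr with a minimum count of 10 and a minimum total of 15) on the 16 HC plants, with Benjamini-Hochberg adjustment over 23882 genes. A standard error is the log2 fold change divided by the square root of F. The length trend was a lowess per plant with a span of 0.5. The script was checked on simulated counts. Alternatives were DESeq2 1.42.0, other scalings, filters and pseudocounts, all 32 plants in the model, a length offset, a replicate block and leaving out each plant; leaving out both libraries numbered with a b was added after seeing the data.

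The genes named are the 10 with the largest d, the 5 most abundant, the 5 longest, the 3 most even, those called in HC (at most 10 by adjusted p), those whose HC FTAZ:PCBM plants lay apart, and 3 on each side of the limit. Names outside this rule, among them neighbours, overlapping genes and the remaining called genes, were chosen after their values were seen. Lists by gene product, leaf markers and sequence features were planned but not used here. No 2 libraries held identical counts, and the highest correlation between plants of a group was 0.992.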

Additional observations from a re-analysis of the deposited data

Results flagged for a closer look

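In each of the 8 groups, for 34 named genes and for the median deviation, the share of reads and the length slope described above, the most distant of the 4 plants was compared with the rest, as its gap to the nearest plant divided by the range of the group. A combination was marked when this ratio exceeded Dixon's 95% critical value for 4 plants, which chance alone does in about 1 in 20 groups. Of 296 combinations 18 were marked, against 14.8 that chance gives, 8 in PC and 10 in HC groups. Each is given below with that ratio in parentheses.

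Under FTAZ:PCBM, 6 combinations were marked. LOC111919099 had HC FTAZ:PCBM plant 3 at 0.518 CPM below the others at 0.667 to 0.698 (0.831). LOC111916659 had PC FTAZ:PCBM plant 1 at 8.65 CPM below the others at 13.1 to 13.3 (0.945). LOC111908115 had PC FTAZ:PCBM plant 4 at 43.4 CPM above the others at 35.1 to 35.7 (0.934). LOC111894625 had HC FTAZ:PCBM plant 3 at 14.6 CPM above the next highest at 11.6 (0.83). LOC111914649 had HC FTAZ:PCBM plant 3 at 74.8 CPM above the others at 63.8 to 65.7 (0.833). LOC111881684 had HC FTAZ:PCBM plant 3 at 1.78 CPM above the others at 1.210 to 1.28 (0.885).

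In the other groups 12 were marked. LOC111881586 had PC Control plant 3 at 2.10 CPM above the others at 0.984 to 1.14 (0.86). LOC111876599 had PC PTB7-Th:IEICO-4F plant 3 at 2.30 CPM above the others at 1.32 to 1.44 (0.879). LOC111891684 had HC FTAZ:IT-M plant 4 at 2.38 CPM above the others at 1.47 to 1.58 (0.878). LOC111921719 had HC FTAZ:IT-M plant 3 at 6.79 CPM below the others at 9.57 to 10.1 (0.843). LOC111918909 had PC PTB7-Th:IEICO-4F plant 2 at 429 CPM below the others at 495 to 509 (0.831). LOC111916056 had HC PTB7-Th:IEICO-4F plant 1 at 7.98 CPM above the others at 5.45 to 5.74 (0.887). LOC111920706 had PC FTAZ:IT-M plant 1 at 12.3 CPM above the others at 8.11 to 8.82 (0.83). LOC111894783 had HC FTAZ:IT-M plant 2 at 69.4 CPM below the others at 78.5 to 80.4 (0.83). LOC111893458 had PC Control plant 3 at 10.98 CPM below the others at 12.9 to 13.2 (0.883). LOC111890690 had PC PTB7-Th:IEICO-4F plant 1 at 16.9 CPM below the others at 17.8 to 17.9 (0.853). LOC111913899 had HC FTAZ:IT-M plant 3 at 21.1 CPM below the others at 26.02 to 27.02 (0.83). LOC111897682 had HC PTB7-Th:IEICO-4F plant 3 at 12.8 CPM above the others at 9.68 to 10.2 (0.836).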

How the results depend on the processing

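For HC FTAZ:PCBM against the other HC groups, the 46 called genes and the 4 called among the 150 became 105 and 13 with all 32 plants in the model, and 308 and 17 with the DESeq2 Wald test. A length offset gave 70 in all. Leaving out a plant gave 2 to 62 in all and 1 to 4 of the 150. For HC FTAZ:PCBM against HC Control, the 4 and 1 became 8 in all with 32 plants, 2 in all with the length offset, and 54 and 2 with DESeq2, and leaving out a plant gave 0 to 4 and 0 to 1. For HC FTAZ:IT-M the 0 in all became 14 with DESeq2 and 0 to 1 without a plant. For HC PTB7-Th:IEICO-4F the 506 and 12 became 937 and 23 with 32 plants and 1363 and 29 with DESeq2, and leaving out a plant gave 27 to 732 and 2 to 18. The 12 were all higher; 1 of the 150 was called lower with 32 plants, with DESeq2, at a mean CPM of at least 5 and without HC PTB7-Th:IEICO-4F 1. The cause of these moves was not tested.

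The replicate numbers name different plants, and in HC the deviations of same-numbered plants had correlations from −0.23 to 0.38, with 4 of 24 over 0.1, so the numbers were not taken as pairs. With them as a replicate block, the counts were 3 and 1 for HC FTAZ:PCBM against the others, 1 and 0 against Control, and 240 and 6 for HC PTB7-Th:IEICO-4F.

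Removing the length trend lowered the genes that qualified from 394 to 206, kept 63 of the 150 and raised the median length of those taken from 1031 to 1833.5 bp. Without both libraries numbered with a b, 664 qualified and the median length was 1128.5 bp. Leaving out a PC plant gave 376 to 784 genes, 138 to 150 of the 150 and a median length of 965 to 1138.5 bp. Leaving out plants also loosens the rule, since fewer plants must lie apart. With TMM scaling 112 of the 150 qualified. Over 20 alternatives the median HC d of the 150 stayed between −0.20 and −0.14, with 119 to 133 genes below 0, and it changed direction in none. Genes near 1 CPM rest on the fewest counts.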
